A study of Mus musculus with 12 samples.

Results

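The genes described are Hsf1, Hspa1a, Hspa1b, Hsph1, Dnajb1, Hsp90aa1, Hspa8, Hspb1, Hspd1 and Hspe1, which encode the heat-shock transcription factor HSF1, cytosolic chaperones and the mitochondrial chaperonin pair. They were taken by gene symbol. All 10 were found among the 40406 entries of the count table, and all 10 were among the 15538 genes tested. RNA was sequenced from 12 cultures of 4T1 cells, a mouse mammary carcinoma line of the BALB/c strain that the labels call triple-negative, in 4 groups of 3 libraries labelled as biological replicates. The groups were cells labelled wild type for integrin β3 with the solvent DMSO (WT-DMSO) or with 10 nM docetaxel (WT-DTX), and cells labelled integrin β3 knockout with DMSO (KO-DMSO) or with 10 nM docetaxel (KO-DTX). Docetaxel is a taxane that stabilises microtubules. Exposure lasted 24 h in every group and was followed by 48 h in fresh medium without drug before harvest, so the libraries report on recovery and not on cells in drug.

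Chaperones bind unfolded or partly folded proteins and keep them from aggregating. HSF1 is held inactive in unstressed cells, and when unfolded protein builds up it forms trimers and binds heat-shock elements, arrays of the letters GAA and TTC in alternating orientation, in the promoters of genes for HSP70, HSP110, HSP40, HSP90 and small heat-shock proteins. The HSP60 and HSP10 proteins, encoded by Hspd1 and Hspe1, form the folding chamber of the mitochondrial matrix. Tumour cells commonly hold high levels of these proteins, and HSP90 clients include many signalling kinases.

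Upstream sequences are shown for the inducible HSP70 pair, whose promoters are almost the same while their counts are not, and for Hspe1 and Hsph1, which hold heat-shock element letters beside a mitochondrial and a cytosolic gene. The letters are the 250 bases before the RefSeq start site (GRCm38.p6), written 5′ to 3′ on the gene's strand, and capitals mark each GAANNTTC or TTCNNGAA. Each of these forms is its own reverse complement, so both strands are covered, and neighbouring forms overlap when GAA and TTC units follow each other.
Hspa1b (chr17:34959239-34959488, minus strand): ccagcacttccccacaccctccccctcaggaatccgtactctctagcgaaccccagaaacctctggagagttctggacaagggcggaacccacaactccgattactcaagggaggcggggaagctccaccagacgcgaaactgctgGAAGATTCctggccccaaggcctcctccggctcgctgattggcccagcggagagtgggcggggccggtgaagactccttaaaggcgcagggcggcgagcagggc
Hspa1a (chr17:34972157-34972406, minus strand): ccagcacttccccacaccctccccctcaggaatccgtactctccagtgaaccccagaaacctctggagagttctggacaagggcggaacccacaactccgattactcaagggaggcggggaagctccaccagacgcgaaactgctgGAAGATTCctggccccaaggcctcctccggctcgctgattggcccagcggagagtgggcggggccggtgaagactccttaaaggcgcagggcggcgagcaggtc
Hspe1 (chr1:55087898-55088147, plus strand): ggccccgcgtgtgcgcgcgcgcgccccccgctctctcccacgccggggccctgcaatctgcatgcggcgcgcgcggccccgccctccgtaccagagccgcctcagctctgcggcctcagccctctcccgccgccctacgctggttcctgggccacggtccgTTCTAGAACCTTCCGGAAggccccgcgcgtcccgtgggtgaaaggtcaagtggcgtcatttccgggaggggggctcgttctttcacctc
Hsph1 (chr5:149636337-149636586, minus strand): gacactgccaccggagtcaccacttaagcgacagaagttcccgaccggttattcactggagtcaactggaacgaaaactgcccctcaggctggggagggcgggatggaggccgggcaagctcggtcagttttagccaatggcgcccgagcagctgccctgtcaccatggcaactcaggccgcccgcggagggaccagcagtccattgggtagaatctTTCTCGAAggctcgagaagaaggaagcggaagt
Windows of 250 bases before and 50 after a start site were searched, and 7 of the 10 genes, all but Hsf1, Hsp90aa1 and Hspa8, were matched to one. Some genes have more than 1 window, and a gene was counted when any of its windows held a form. Either form was present in 6 of the 7 genes, against 17% of 27025 genes counted in the same way (15.1% of 32851 single windows). A longer form of 13 letters has 3 units in alternating orientation (GAA, TTC, GAA or TTC, GAA, TTC) with NN between units. It was present in Hspe1, Hspd1 and Hsph1, against 0.662% of all genes and 0.603% of single windows. In Hspe1 and Hspd1 it is the same stretch of bases, so these are not separate cases. The 10 genes were listed as HSF1 targets and mitochondrial chaperonins. A high share of these letters therefore follows from how the genes were chosen, and it was not tested.

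In Hspe1 the capitals run from −89 to −72 before the start site and hold overlapping forms. The same bases lie in the second of the 2 windows of Hspd1, read on the other strand, at −144 to −127. In Hsph1 the 13 letters lie after the most upstream start site, at 37 to 49 (chr5:149636288-149636300, minus strand), with the sequence TTCTGGAAAGTTC, and a further 8-letter form lies at −33 to −26. Hspa1a and Hspa1b each hold GAANNTTC at −104 to −97, and their 250 upstream bases are identical at 247 positions. Hspb1 holds GAANNTTC at −117 to −110 and at −97 to −90. The letters were not found in the windows of Dnajb1. A match is a description of the sequence and not a binding site, and binding was not measured.

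Total counts ran from 28729118 to 40801679 per library, and the 10 genes took 0.308% to 0.464% of them. The epithelial markers Krt8, Krt18, Epcam and Cdh1 lay at 309 CPM or more in every library (CPM, counts scaled to the library total), and Krt14 lay at 38.2 to 72.5 CPM. The endothelial markers Pecam1 and Cdh5 lay at 0.455 CPM or less. Of the leukocyte markers, Ptprc and Adgre1 lay at 0.252 CPM or less, but Cd3e at 1.34 to 4.23 CPM and Cd68 at 13.045 to 32.9 CPM. Of the fibroblast markers, Dcn lay at 0.0688 CPM or less and Lum at 0, but Pdgfra at 10.98 to 29.7 CPM. The part of such transcripts in the results was not tested. Of the receptors that define triple-negative cells, Pgr was at 0.112 CPM or less, but Esr1 and Erbb2 transcripts were present at 20.4 to 50.5 and 74.3 to 143 CPM. Itgb3, the targeted gene, stood at 65.9 ± 5.67 CPM in WT-DMSO and 64.7 ± 2.14 CPM in KO-DMSO, a log2 difference of −0.03 ± 0.08 (edgeR adjusted p = 0.874). It stood at 83.1 ± 4.88 CPM in WT-DTX and 62.4 ± 2.77 CPM in KO-DTX, a difference of −0.41 ± 0.08 (edgeR adjusted p = 0.00765). Its transcript was thus present in all libraries labelled knockout and every genotype direction below rests on the labels. For WT-DMSO library 1 the labels conflict, since the description says knockout and the title and genotype fields say wild type. The share of counts in Gm23935, a miRNA entry of GENCODE, was 3.98% in WT-DMSO library 2, 1.62% in WT-DMSO library 1, 1.51% in KO-DTX library 3 and 0.856% or less in the others. Results that turn on WT-DMSO library 2 and KO-DTX library 3, the highest of their groups, are given without that pair, and WT-DMSO library 1 was left out on its own. In cultures sequenced in bulk, fewer cells that carry a transcript and less transcript per cell cannot be told apart.

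Levels were compared between genes after division by exon length (CPM per kilobase of merged exons). In WT-DMSO the constitutive cytosolic HSP70 gene Hspa8 was highest, at 387 ± 6.08 CPM per kilobase (mean ± SD, n = 3 libraries here and below), followed by Hsp90aa1 at 206 ± 42.0 and Hspd1 at 175 ± 32.6. The SD intervals of Hsp90aa1 and Hspd1 overlapped, and these neighbours were not separated beyond their spread. Hspe1 stood at 93.3 ± 10.0, Hsph1 at 38.5 ± 6.87, Hspa1b at 18.1 ± 4.85, Dnajb1 at 10.96 ± 0.325 and Hsf1 at 6.63 ± 0.516 CPM per kilobase. Hspa1a, at 0.373 ± 0.149, and Hspb1, at 0.312 ± 0.137, were near the limit of detection and overlapped each other. The order was the same in WT-DTX and KO-DMSO. In KO-DTX Hsp90aa1 took the top place, at 360 ± 30.4 against 348 ± 7.01 CPM per kilobase for Hspa8, a difference within their spread.

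**Figure D1:**
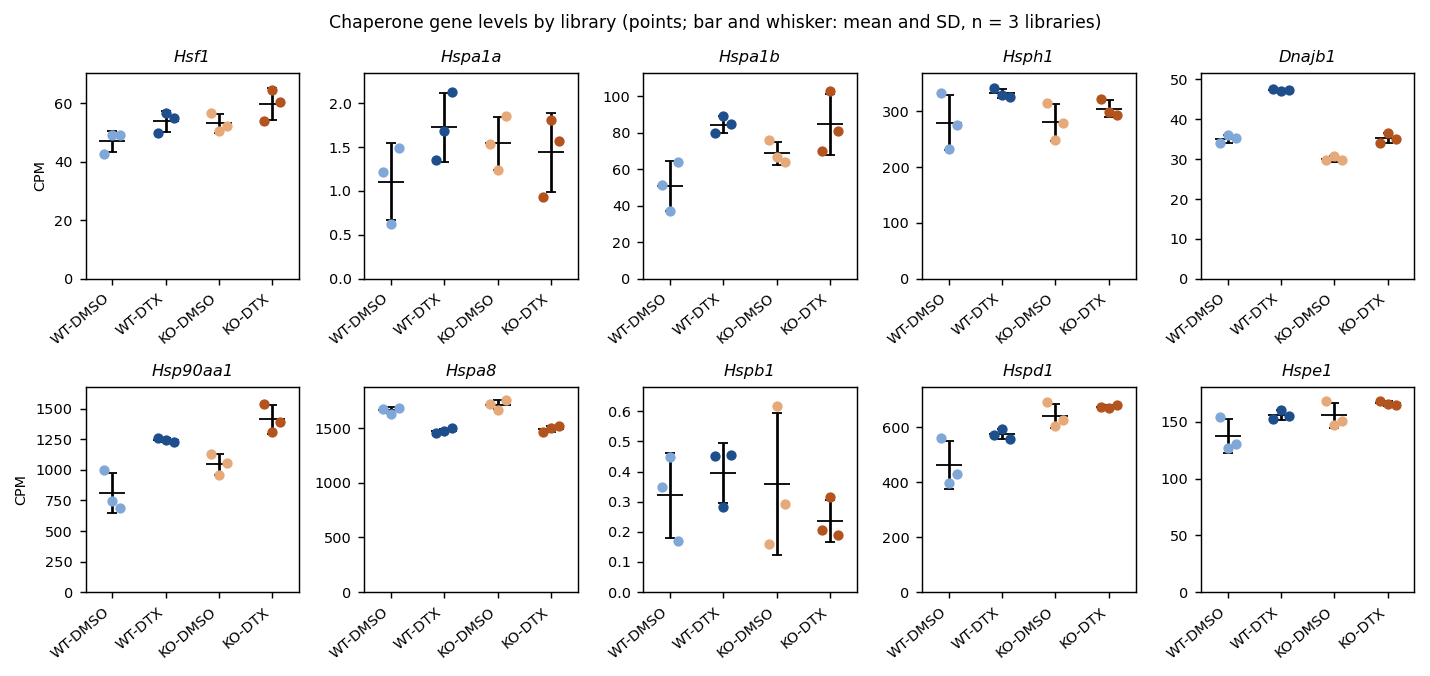
CPM of the 10 genes in each library (points, 3 per group, each axis from 0), with the group mean as a bar and the SD as a whisker. Dnajb1, Hsp90aa1, Hspa1b and, by a narrow margin, Hsf1 stand higher in WT-DTX than in WT-DMSO without overlap. Hspa8 stands lower after docetaxel in both genotypes, and the WT-DMSO libraries are spread widely in Hsph1, Hsp90aa1 and Hspd1. With docetaxel in wild-type cells 21.2% of all tested genes were apart and higher and 19.3% apart and lower. In knockout-labelled cells 18.5% were apart and lower.

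Docetaxel in wild-type cells was followed by higher levels of the inducible HSP70 gene Hspa1b, the inducible HSP90 gene Hsp90aa1, the HSP40 gene Dnajb1 and the HSP60 gene Hspd1, with folds of 1.66, 1.54, 1.35 and 1.24. These 4 of the 10 genes were called, 0 were lower, and 6 did not pass (edgeR quasi-likelihood test, adjusted p threshold 0.05 over all tested genes). Of all 15538 tested genes 28.4% were called, 14.5% of all as higher and 13.8% as lower. The median log2 fold change was 0.31 over the 10 genes and 0.02 over all tested genes. The WT-DTX libraries lay wholly above the WT-DMSO libraries for Hsf1, Hspa1b, Dnajb1 and Hsp90aa1, and wholly below them for Hspa8, where 21.2% and 19.3% of all tested genes were apart in these directions.

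In knockout-labelled cells docetaxel was followed by higher Hsp90aa1, 1.35-fold, and higher Dnajb1, 1.17-fold. These were 2 of the 10 genes, with 0 lower, where 16.1% of all tested genes were called in either direction and 9.09% as higher. The median log2 fold change was 0.11 over the 10 genes and 0.00 over all tested genes (0.0024). Neither call was stable. The count fell to 0 without KO-DMSO library 2 or 3 or KO-DTX library 1 or 3, and to 1 without any of WT-DMSO library 3, the WT-DTX libraries, KO-DMSO library 1 and KO-DTX library 2. It was 0 without WT-DMSO library 2 and KO-DTX library 3 together, and 5, with 4 higher and 1 lower, after a correction of each library for GC content. Over all tested genes the calls went from 2499 to 1311 and 1458 without KO-DMSO library 2 and 3. They went to 1616 and 1500 without KO-DTX library 1 and 3, to 1748 without the pair, and to 3079 after the GC correction. With 1 library left out the log2 fold change stayed at 0.36 to 0.49 for Hsp90aa1 and 0.21 to 0.25 for Dnajb1.

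Between the genotypes under DMSO, the knockout-labelled cells had higher Hspd1, 1.38-fold, and lower Dnajb1 (−0.23 on the log2 scale). That makes 2 of the 10 genes called, where 15.8% of all tested genes were called, 6.6% as higher and 9.2% as lower. After docetaxel only Dnajb1 was called, with −0.43 for knockout-labelled minus wild-type cells, so that 1 of 10 was called against 5.89% of all tested genes, 2.5% as higher and 3.39% as lower. The count under DMSO was 0 without KO-DMSO library 1, 4 without WT-DMSO library 1, and 1 without any of WT-DMSO library 2, the WT-DTX libraries, KO-DMSO library 2 or 3 and KO-DTX library 2 or 3. It was also 0 without WT-DMSO library 2 and KO-DTX library 3 together and 4 after the GC correction. Over all tested genes the calls went from 2454 to 1264 without KO-DMSO library 1 and to 3273 without WT-DMSO library 1. They went to 1267 without that pair and to 3129 after the GC correction.

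The difference between the docetaxel effects of the 2 genotypes was tested directly as an interaction. For 0 of the 10 genes did it pass (edgeR lowest adjusted p = 0.475), where 0.109% of all tested genes were called, 0.0901% as higher and 0.0193% as lower, and 0 of the 10 had an unadjusted p under 0.05. DESeq2 also called 0. All 10 estimates were below 0, with a median of −0.20, while 49.9% of all tested genes were above 0. For Hspa1a (0.64 and −0.11) and Hspb1 (0.30 and −0.58), both near the limit of detection, this was a rise in wild-type against a fall in knockout-labelled cells. For the others it was a smaller rise or, in Hspa8, a larger fall in knockout-labelled cells. The 10 estimates share their 12 libraries, among them WT-DMSO library 2, in which 5 of the genes had their lowest value, so they are not 10 separate observations.

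**Figure D2:**
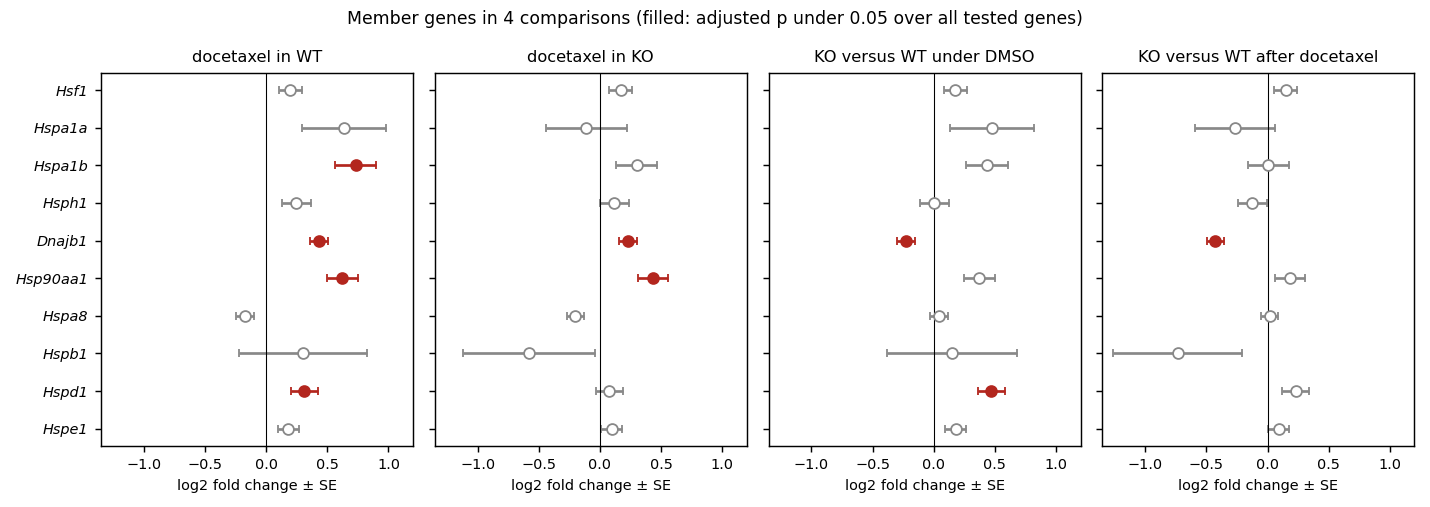
Log2 fold changes with their SE for the 10 genes in 4 comparisons, with filled points for an adjusted p under 0.05. Filled points lie right of 0 for docetaxel in both genotypes, and Dnajb1 alone lies left of 0 with a filled point in both comparisons of the genotypes.

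Hsf1 encodes the transcription factor itself, whose activity is set mainly after translation. The gene spans chr15:76477422-76501913, plus strand (ENSMUSG00000022556.11; GENCODE M21 on GRCm38, as for all gene positions here). Its level was 42.9, 49.1 and 49.3 CPM in the WT-DMSO libraries and 49.9, 56.8 and 55.1 CPM in the WT-DTX libraries. In the knockout-labelled cells it was 56.7, 50.6 and 52.3 CPM under DMSO and 54.1, 64.8 and 60.7 CPM after docetaxel. The WT-DTX libraries were higher than the WT-DMSO libraries by a narrow margin, and the knockout-labelled groups overlapped. With docetaxel the log2 fold change was 0.20 ± 0.09 (SE) for wild type and 0.17 ± 0.09 for knockout-labelled cells, and neither passed (edgeR adjusted p = 0.137 and 0.244). After the GC correction the second was 0.23 with an edgeR adjusted p of 0.0456.

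Hspa1b encodes the stress-inducible cytosolic HSP70 and spans chr17:34956436-34959238, minus strand (ENSMUSG00000090877.3). It stood at 51.6, 36.9 and 64.1 CPM in WT-DMSO and at 79.8, 89.1 and 84.6 CPM in WT-DTX. In KO-DMSO it stood at 75.8, 66.5 and 64.0 CPM and in KO-DTX at 70.0, 103 and 81.2 CPM. All WT-DTX libraries were above all WT-DMSO libraries, with WT-DMSO library 2 lowest of the 12, while the 2 knockout-labelled groups overlapped. The docetaxel change was 0.73 ± 0.17 on the log2 scale in wild-type cells (edgeR adjusted p = 0.00603), a call kept under all 25 alternatives at log2 fold changes of 0.55 to 0.93. In knockout-labelled cells it was 0.30 ± 0.17 (edgeR adjusted p = 0.252). This passed under 3 of 25 alternatives: the GC correction (edgeR adjusted p = 0.0186), that with the replicate number as a block (0.0264), and no filter on low counts (0.0443). Under DMSO the genotypes differed by 0.44 ± 0.17, which did not pass (edgeR adjusted p = 0.0997), but did without WT-DMSO library 3 (adjusted p = 0.0216). It also passed with no filter on low counts (edgeR adjusted p = 0.0011) and with the GC correction, without and with the block (0.0261 and 0.0359).

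Hspa1a encodes a nearly identical HSP70 and lies 9951 bases from Hspa1b on the same strand, at chr17:34969190-34972156 (ENSMUSG00000091971.3). It received 18 to 75 counts per library against 1073 to 3579 for Hspa1b, although the upstream sequences of the pair differ at 3 of 250 positions. Its share of the pair's counts ran from 1.32% (95% exact binomial interval 0.949% to 1.79%, counting error only) in KO-DTX library 1 to 2.81% (2.17% to 3.58%) in KO-DMSO library 3. The pair's transcripts shared many 150-base stretches, the read length. Of the 150-base windows of Hspa1a, 39.7% also occurred in a transcript of another gene, 38.1% in Hspa1b, and of those of Hspa1b, 40.5% occurred in Hspa1a. How reads matching both genes were counted was not given in the sources used here, so the split between them is uncertain. With their counts summed, the docetaxel call in wild-type cells was kept. In CPM, Hspa1a had means of 1.11 ± 0.444, 1.72 ± 0.390, 1.54 ± 0.307 and 1.44 ± 0.453 in WT-DMSO, WT-DTX, KO-DMSO and KO-DTX, all groups overlapped, and it was called in 0 comparisons (edgeR adjusted p = 0.18 to 0.86).

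Hsph1 encodes HSP110, which helps HSP70 to exchange nucleotide and to dissolve aggregates, and spans chr5:149614287-149636376, minus strand (ENSMUSG00000029657.15). Its level was 332, 233 and 275 CPM in WT-DMSO and 342, 329 and 325 CPM in WT-DTX. In the knockout-labelled cells it was 315, 248 and 278 CPM under DMSO and 321, 299 and 293 CPM after docetaxel. The DMSO groups were spread widely and each overlapped its docetaxel group. The docetaxel change in wild-type cells was 0.25 ± 0.12 (edgeR adjusted p = 0.132), and 0.39 without WT-DMSO library 1, where it passed (adjusted p = 0.0155). Under DMSO the genotypes differed by 0.00 (95% interval −0.25 to 0.25), an interval that holds a change of the size seen in Dnajb1 but not the rise of Hspd1. Both DMSO groups had library 1 highest and library 2 lowest, an order that Hspd1 and Hspe1 shared.

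Dnajb1 encodes the HSP40 partner that delivers clients to HSP70, and spans chr8:83608193-83612653, plus strand (ENSMUSG00000005483.10). It was measured with the least spread of the 10 genes in WT-DMSO after Hspa8. It stood at 34.0, 36.0 and 35.4 CPM in WT-DMSO and at 47.7, 47.0 and 47.2 CPM in WT-DTX. In KO-DMSO it stood at 29.7, 30.8 and 29.7 CPM and in KO-DTX at 34.1, 36.6 and 34.9 CPM. No library of a docetaxel group overlapped its DMSO group, and no knockout-labelled library reached the wild-type libraries of the same treatment. Among the 10 genes Dnajb1 alone was apart in all 4 comparisons. Of all tested genes 21.2% and 19.2% were apart and higher with docetaxel in wild-type and knockout-labelled cells. Between genotypes 16.9% and 13.2% were apart and lower under DMSO and after docetaxel. The share apart in all 4 was not counted, and Hspa4l and Cryab, described below, were also apart in all 4 in these directions.

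In wild-type cells the docetaxel change of Dnajb1 was 0.43 ± 0.07 on the log2 scale (edgeR adjusted p = 0.000792), and after docetaxel the genotypes differed by −0.43 ± 0.07 (edgeR adjusted p = 0.00255). Both calls were kept under all 25 alternatives. The other calls of Dnajb1 were close to the threshold. For docetaxel in knockout-labelled cells the change was 0.23 ± 0.07 (edgeR adjusted p = 0.0447), which held only without WT-DMSO library 1 or 2 and gave 0.0516 to 0.137 without any of the other 10 libraries and 0.101 without WT-DMSO library 2 and KO-DTX library 3 together. Under DMSO the genotypes differed by −0.23 ± 0.07 (edgeR adjusted p = 0.0493), which held only without WT-DMSO library 1 or KO-DTX library 1 and gave 0.0561 to 0.153 without any of the other 10 and 0.196 without that pair. With the replicate number as a block the latter was 0.054.

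Hsp90aa1 encodes the inducible cytosolic HSP90α and spans chr12:110690605-110702728, minus strand (ENSMUSG00000021270.13). Its level was 997, 746 and 686 CPM in WT-DMSO and 1265, 1248 and 1229 CPM in WT-DTX. In KO-DMSO it was 1131, 960 and 1054 CPM and in KO-DTX 1543, 1308 and 1389 CPM. Docetaxel libraries were above the DMSO libraries of their genotype in every case. The change was 0.62 ± 0.12 in wild-type cells (edgeR adjusted p = 0.00244, kept under all 25 alternatives) and 0.43 ± 0.12 in knockout-labelled cells (edgeR adjusted p = 0.0294). The second was lost without KO-DMSO library 2 (adjusted p = 0.129) or 3 (0.0853) or KO-DTX library 1 (0.103) or 3 (0.0725), and without WT-DMSO library 2 and KO-DTX library 3 together (0.0653). Between the genotypes under DMSO the difference was 0.37 ± 0.12, which missed the threshold (edgeR adjusted p = 0.0561). It passed under 8 of 25 alternatives. With edgeR these included omission of WT-DMSO library 1 (adjusted p = 0.00187) or KO-DTX library 1 (0.0448) and the replicate number as a block (0.0232). No filter on low counts (0.00412) and the GC correction (0.0172) were also among them. DESeq2 gave an adjusted p of 0.0247 and limma-voom 0.0402.

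Its constitutive relative Hsp90ab1, at 3850 ± 668 CPM in WT-DMSO and 3341 ± 358 CPM in WT-DTX, had log2 fold changes of −0.20 ± 0.15 and, in knockout-labelled cells, −0.38 ± 0.15. Neither passed (edgeR adjusted p = 0.321 and 0.0891), though the second did without WT-DMSO library 2 (0.0463) or KO-DTX library 2 (0.0398). The ratio of Hsp90aa1 to Hsp90ab1 counts within a library was 0.249, 0.239 and 0.155 in WT-DMSO and 0.426, 0.339 and 0.364 in WT-DTX. In KO-DMSO it was 0.259, 0.219 and 0.249 and in KO-DTX 0.588, 0.341 and 0.399. The ratio was higher in every docetaxel library than in every DMSO library. Of the 150-base windows of Hsp90aa1, 28.4% occurred in another gene, most of them in the processed pseudogene Gm12346, whose own level ran from 23.4 to 46.4 CPM. With its counts added to Hsp90aa1 the docetaxel ratios started at 0.349 and the DMSO ratios ended at 0.266.

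Hspa8 encodes the constitutive HSC70, which serves folding, clathrin uncoating and chaperone-mediated autophagy, and spans chr9:40800984-40810087, plus strand (ENSMUSG00000015656.17). It stood at 1674, 1635 and 1685 CPM in WT-DMSO and at 1461, 1472 and 1501 CPM in WT-DTX. In KO-DMSO it stood at 1726, 1670 and 1756 CPM and in KO-DTX at 1462, 1501 and 1521 CPM. Docetaxel libraries were below DMSO libraries in both genotypes without overlap, whereas those of Hsp90aa1 and Dnajb1 were above. Of all tested genes 19.3% and 18.5% were apart and lower with docetaxel in wild-type and knockout-labelled cells. The share with both was not counted. The log2 fold changes of −0.17 ± 0.07 and −0.20 ± 0.07 did not pass with edgeR (adjusted p = 0.0899 and 0.0741), while DESeq2 gave adjusted p of 0.00281 and 0.00152. Between the genotypes it differed by 0.05 ± 0.07 under DMSO and 0.02 ± 0.07 after docetaxel. Of its 150-base windows, 22.8% also occurred in another gene.

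**Figure D3:**
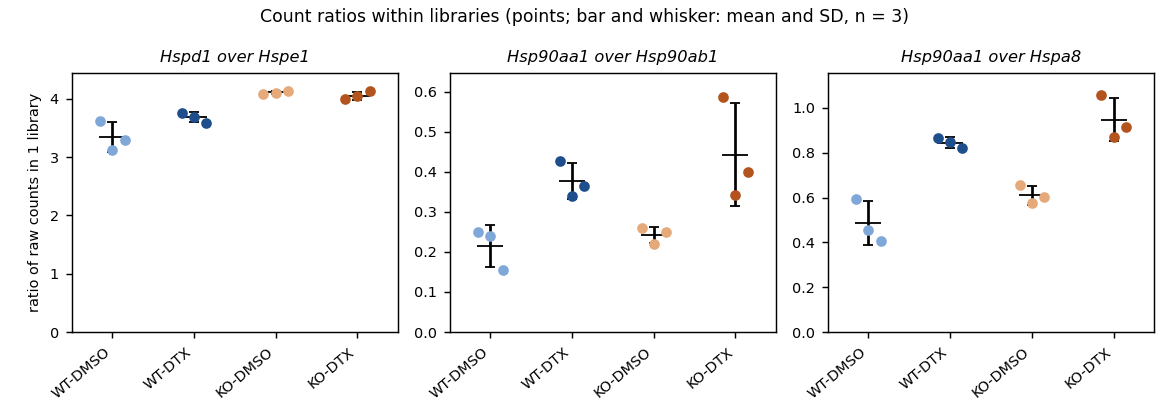
Ratios of raw counts within each library (points, 3 per group, axes from 0), with means and SD. Hsp90aa1 over Hsp90ab1 and Hsp90aa1 over Hspa8 are higher in all docetaxel libraries than in all DMSO libraries, and Hspd1 over Hspe1 is higher in all knockout-labelled than in all wild-type libraries.

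Hspb1, which encodes the small heat-shock protein HSP27 (HSP25 in mouse), received very few counts in these libraries. It spans chr5:135887919-135889563, plus strand (ENSMUSG00000004951.10). It received 5 to 19 counts per library, or 28, 42, 34 and 26 counts over the WT-DMSO, WT-DTX, KO-DMSO and KO-DTX groups, and its level was 0.160 to 0.619 CPM. All groups overlapped, and the SE of its log2 fold changes was 0.52 to 0.54 in the 4 comparisons of groups, so that a change of the size seen in Hspa1b could be missed. The processed pseudogene Hsp25-ps1, which held 39.1% of its 150-base windows, received 0 counts. How reads matching both were counted was not given, so the level of Hspb1 is uncertain.

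Hspd1 and Hspe1 lie head to head, Hspd1 at chr1:55077835-55088243, minus strand (ENSMUSG00000025980.14), and Hspe1 at chr1:55088132-55091307, plus strand (ENSMUSG00000073676.4), with an overlap of 112 bases at their starts. Reads in those bases cannot be assigned without strand. The level of Hspd1 was 560, 397 and 430 CPM in WT-DMSO and 572, 592 and 558 CPM in WT-DTX. In KO-DMSO it was 689, 605 and 624 CPM and in KO-DTX 672, 668 and 680 CPM. Every knockout-labelled library was above every wild-type library, while the docetaxel and DMSO libraries overlapped within each genotype. Of all tested genes 15.7% and 11.9% were apart and higher in knockout-labelled cells under DMSO and after docetaxel. The share with both was not counted. Under DMSO the genotypes differed by 0.47 ± 0.11 on the log2 scale (edgeR adjusted p = 0.0107), a call lost without KO-DMSO library 1 (0.0619) and without WT-DMSO library 2 and KO-DTX library 3 together (0.0785). After docetaxel the difference was 0.23 ± 0.11 and did not pass (edgeR adjusted p = 0.291).

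The docetaxel change of Hspd1 in wild-type cells was 0.31 ± 0.11 (edgeR adjusted p = 0.0471). This call held only without WT-DMSO library 1 or KO-DTX library 1 and gave 0.0559 to 0.166 without any of the other 10 libraries and 0.22 without WT-DMSO library 2 and KO-DTX library 3 together. In knockout-labelled cells the change was 0.07 ± 0.11 (edgeR adjusted p = 0.697). Hspe1 stood at 154, 127 and 131 CPM in WT-DMSO, 152, 161 and 155 CPM in WT-DTX, 169, 147 and 151 CPM in KO-DMSO, and 169, 165 and 165 CPM in KO-DTX. The order of the group means was that of Hspd1 except that WT-DTX and KO-DMSO were level, and the changes were smaller. It was called in 0 comparisons, with 0.18 ± 0.09 for docetaxel in wild-type cells (edgeR adjusted p = 0.127) and 0.18 ± 0.09 between the genotypes under DMSO (edgeR adjusted p = 0.176). Without WT-DMSO library 1 both passed (0.0191 and 0.0267).

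The ratio of Hspd1 to Hspe1 counts within a library was 3.62, 3.12 and 3.29 in WT-DMSO and 3.76, 3.69 and 3.59 in WT-DTX. It was 4.09, 4.10 and 4.13 in KO-DMSO and 3.99, 4.04 and 4.13 in KO-DTX. All knockout-labelled libraries had a higher ratio than all wild-type libraries, and the KO-DMSO libraries were within 0.05 of each other. The ratio does not depend on library scaling. With the counts of the processed pseudogene Hspd1-ps3, which held 16.1% of the 150-base windows of Hspd1, added, the knockout-labelled ratios were 4.12 to 4.29 and the wild-type ratios 3.22 to 3.88. These ratios were looked at without a test, and the difference between genotypes was not tested.

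The wider chaperone network was described with a list of 65 genes chosen by role. Of these 64 were in the table and 63 were tested, and Hspa1l had too few counts. In wild-type cells 21 rose with docetaxel, 5 fell and 37 did not pass, or 33.3% called higher and 7.94% lower, where 14.5% and 13.8% of all tested genes were called in these directions. Their median log2 fold change was 0.20, against 0.02 over all tested genes. In knockout-labelled cells 9 rose, 0 fell and 54 did not pass, 14.3% called higher against 9.09% of all tested genes, and the median was 0.06. The wild-type count of 26 called genes was 15, 16 and 17 without WT-DTX libraries 3, 1 and 2, 17 without WT-DMSO library 3, and 15 without WT-DMSO library 2 and KO-DTX library 3 together. The knockout-labelled count of 9 was 4 without KO-DMSO library 2 and 5 without KO-DMSO library 1 or 3 or KO-DTX library 1 or 3. In wild-type cells the calls over all tested genes went from 4406 to 3046, 3035 and 3551 without WT-DTX libraries 3, 1 and 2. They went to 3353 without WT-DMSO library 3 and to 3109 without that pair. In knockout-labelled cells they went from 2499 to 1785, 1311 and 1458 without KO-DMSO libraries 1, 2 and 3. Without KO-DTX library 1 and 3 they were 1616 and 1500.

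**Figure D4:**
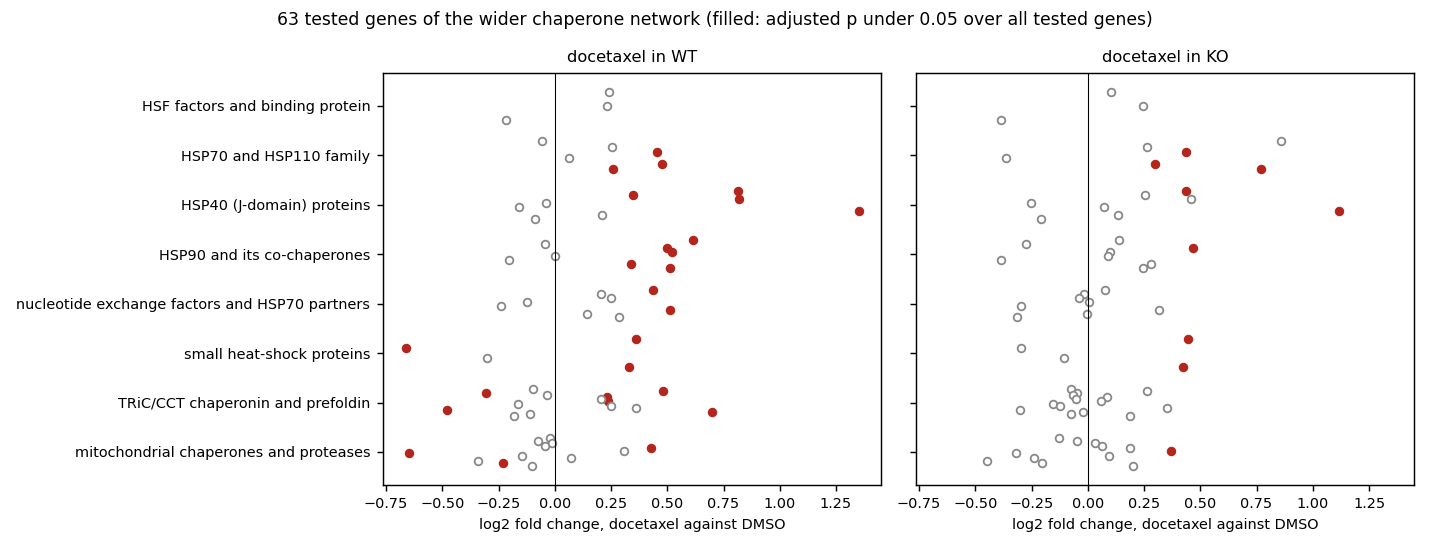
Log2 fold change with docetaxel of the 63 tested network genes (points, grouped by role), in wild-type cells on the left and knockout-labelled cells on the right, with filled points for an adjusted p under 0.05. In wild-type cells all filled points lie right of 0 in the HSP40, HSP90, HSP70 and HSP110, and nucleotide exchange factor groups. The small heat-shock protein, mitochondrial and TRiC groups have filled points on both sides.

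Of 8 tested genes for HSP90 and its co-chaperones, Hsp90ab1 included, 5 (62.5%) rose in wild-type cells and 1 (12.5%) in knockout-labelled cells, with 0 lower in either. Here and for the lists that follow, 14.5% of all tested genes were called higher and 13.8% lower in wild-type cells, and 9.09% and 7% in knockout-labelled cells. With lists of 3 to 14 genes, 1 gene moves a share by several percent, and no list was tested against the rest. Stip1, whose product links HSP70 to HSP90, rose from 192 ± 30.8 to 274 ± 22.4 CPM in wild-type cells (log2 fold change 0.51 ± 0.11, edgeR adjusted p = 0.00422), and its change in knockout-labelled cells was 0.24 ± 0.11 (edgeR adjusted p = 0.157). Chordc1, an HSP90 co-chaperone gene, rose in knockout-labelled cells by 0.47 ± 0.13 (edgeR adjusted p = 0.0296), a call lost without any KO-DMSO library (0.0575, 0.113 and 0.0913 for libraries 1 to 3) or without KO-DTX library 1 (0.135).

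Of 8 HSP40 genes, docetaxel was followed by a rise of 4 in wild-type cells (50%, against 14.5% of all tested genes) and of 2 in those labelled knockout (25%, against 9.09%), with 0 lower. Dnaja1, a farnesylated HSP40 of the cytosol, stood at 85.6, 73.2 and 77.1 CPM in WT-DMSO and 144, 133 and 137 CPM in WT-DTX. In KO-DMSO it stood at 110, 96.1 and 97.6 CPM and in KO-DTX at 151, 132 and 128 CPM. The groups were apart with docetaxel in both genotypes. The log2 fold changes were 0.81 ± 0.09 and 0.44 ± 0.09 (edgeR adjusted p = 4.46e-05 and 0.0047). Their difference, −0.38 ± 0.13, did not pass (edgeR adjusted p = 0.339). Under DMSO the knockout-labelled cells were higher by 0.36 ± 0.09 (edgeR adjusted p = 0.0142), a call lost without WT-DMSO library 2 (0.0614) or KO-DMSO library 1 (0.0861). Dnaja4 rose in wild-type cells by 0.82 ± 0.22 (edgeR adjusted p = 0.0139, and 0.0566 without WT-DTX library 3).

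Of 6 tested HSP70 and HSP110 relatives, Hspa4, Hspa4l and Hspa13 rose in each genotype (50%, against 14.5% and 9.09% of all tested genes). Some of these calls were close to the threshold. In that order the edgeR adjusted p was 0.00101, 0.0461 and 0.0207 in wild-type cells. In knockout-labelled cells it was 0.0254 for Hspa4 and 0.0383 for Hspa13. Hspa4l, an HSP110 relative, rose from 51.0 ± 2.23 to 86.9 ± 9.89 CPM in knockout-labelled cells (0.77 ± 0.09, edgeR adjusted p = 6.87e-05). In wild-type cells it was at 105 ± 6.71 CPM under DMSO and 126 ± 5.79 CPM after docetaxel. It was thus lower in knockout-labelled cells by −1.05 ± 0.09 under DMSO (edgeR adjusted p = 4.72e-06) and by −0.53 ± 0.09 after docetaxel (edgeR adjusted p = 0.00255). The HSP40 gene Dnajb4 was likewise lower in knockout-labelled cells, by −0.94 ± 0.14 under DMSO (edgeR adjusted p = 0.000379) and −0.71 ± 0.13 after docetaxel (edgeR adjusted p = 0.00529). These genotype calls of Hspa4l and Dnajb4 were kept without any 1 of the 12 libraries.

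Of 4 small heat-shock protein genes, Cryab and Hspb8 rose in both genotypes and Hspb2 fell in wild-type cells (50% higher against 14.5% and 9.09% of all tested genes, and 25% lower against 13.8%). Cryab, the gene of αB-crystallin, was at 24.6 ± 3.65 CPM in WT-DMSO and 31.6 ± 2.89 CPM in WT-DTX, and at 17.8 ± 1.60 and 24.3 ± 2.41 CPM in KO-DMSO and KO-DTX. Its change in knockout-labelled cells was 0.45 ± 0.12 (edgeR adjusted p = 0.0261), lost without KO-DMSO library 1 (0.0792) or 2 (0.109) or KO-DTX library 2 (0.061) or 3 (0.0904). Under DMSO it was lower in knockout-labelled cells by −0.46 ± 0.13 (edgeR adjusted p = 0.0218), lost without WT-DMSO library 2 (0.0668) or 3 (0.0786) or KO-DMSO library 1 (0.0836) or 2 (0.0819). Hspb2 changed by −0.66 ± 0.19 (edgeR adjusted p = 0.0207), lost without WT-DMSO library 3 (0.0881) or WT-DTX library 1 (0.0868) or 3 (0.0725).

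Of 8 nucleotide exchange factors and HSP70 partners, Bag1 and Hspbp1 rose in wild-type cells (25%, against 14.5% of all tested genes) and 0 passed the test in knockout-labelled cells, where 16.1% of all tested genes did. Bag3, an HSF1 target in heat-shocked cells whose product joins HSP70 to autophagy, was at 73.9 ± 8.88, 87.9 ± 2.11, 88.2 ± 1.46 and 86.0 ± 13.1 CPM in WT-DMSO, WT-DTX, KO-DMSO and KO-DTX. Its docetaxel change of 0.25 ± 0.11 in wild-type cells did not pass (edgeR adjusted p = 0.101), but did without WT-DMSO library 3 (0.0402) or KO-DTX library 1 (0.0408). Of 3 genes for HSF2, HSF4 and the HSF-binding protein HSBP1, 0 passed the test with docetaxel, with Hsf2 at 0.23 ± 0.13 for wild type and 0.24 ± 0.13 for the knockout label (edgeR adjusted p = 0.186 and 0.212). After the GC correction the wild-type value was 0.27 (edgeR adjusted p = 0.0277).

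The cytosolic chaperonin TRiC and its partner prefoldin, which fold actin and tubulin, had 4 of 14 genes called higher in wild-type cells (Cct3, Cct6a, Cct8 and Pfdn6, 28.6% against 14.5% of all tested genes) and 2 called lower (Cct4 and Pfdn5, 14.3% against 13.8%), and 0 called in knockout-labelled cells, where 16.1% of all tested genes were. In wild-type cells Pfdn6 rose by 0.70 ± 0.24 (edgeR adjusted p = 0.0393), lost without WT-DMSO library 2 (0.134) or 3 (0.0811), WT-DTX library 2 (0.149) or 3 (0.0819), KO-DMSO library 2 (0.0522) or KO-DTX library 3 (0.0543). Under DMSO Pfdn6 was higher for the knockout label by 0.74 ± 0.24 (edgeR adjusted p = 0.0464), lost without any of WT-DMSO library 2 or 3, WT-DTX library 3, the KO-DMSO libraries and KO-DTX library 3, at 0.0573 to 0.181. With the replicate number as a block both missed the threshold (0.0611 and 0.0692).

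Of 12 further mitochondrial chaperone and protease genes, 1 rose (8.33%, against 14.5% of all tested genes) and 2 fell (16.7%, against 13.8%) in wild-type cells, and 1 rose in knockout-labelled cells (8.33%, against 9.09%). These shares are near those of all tested genes. The mitochondrial HSP90 gene Trap1 fell from 183 ± 6.79 to 156 ± 7.55 CPM in wild-type cells (−0.23 ± 0.07, edgeR adjusted p = 0.0321). This was lost without WT-DMSO library 1 (0.0513) or 3 (0.0845), WT-DTX library 1 (0.117) or 3 (0.103) or KO-DTX library 3 (0.0522). The mitochondrial HSP70 gene Hspa9 stood at 591, 555 and 590 CPM in WT-DMSO, 514, 535 and 522 CPM in WT-DTX, 438, 420 and 428 CPM in KO-DMSO, and 474, 442 and 458 CPM in KO-DTX. Every knockout-labelled library was below every wild-type library, opposite to Hspd1. Of all tested genes 16.9% and 13.2% were apart and lower in knockout-labelled cells under DMSO and after docetaxel. Under DMSO the difference was −0.43 ± 0.07 (edgeR adjusted p = 0.000993), kept without any 1 of the 12 libraries, and after docetaxel −0.19 ± 0.07 (edgeR adjusted p = 0.149).

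Between the genotypes under DMSO, 7 of the 63 network genes were higher and 5 lower in knockout-labelled cells, or 11.1% and 7.94%, where 6.6% and 9.2% of all tested genes were called. Stip1 was among the higher, by 0.42 ± 0.11 (edgeR adjusted p = 0.0216), lost without WT-DMSO library 2 (0.0871) or 3 (0.0586) or KO-DMSO library 1 (0.101) or 2 (0.0527). The 12 calls became 6 without WT-DMSO library 2, 4 without KO-DMSO library 1 and 7 without KO-DMSO library 2 or 3. They became 19 with DESeq2 (13 higher, 6 lower) and 22 after the GC correction (15 higher, 7 lower). Over all tested genes the calls went from 2454 to 1581 without WT-DMSO library 2. They went to 1264, 1710 and 1566 without KO-DMSO libraries 1, 2 and 3, to 2996 with DESeq2 and to 3129 after the GC correction. After docetaxel 0 were higher and 3 lower, or 4.76% against 3.39% of all tested genes, and the 3 calls became 7 with DESeq2 and 6 after the GC correction. Over all tested genes these changes of method took the calls from 915 to 1287 and 1326. Without WT-DMSO library 2 and KO-DTX library 3, 5 genes were called under DMSO, all lower, and among the calls lost were those of Stip1 (edgeR adjusted p = 0.136), Dnaja1 (0.0785), Cryab (0.1) and Pfdn6 (0.216). The same omission ended the docetaxel calls of Dnaja4 (0.0624), Pfdn6 (0.17) and Trap1 (0.0562) in wild-type cells and of Cryab (0.0792) in knockout-labelled cells. For the interaction 0 of 63 passed with edgeR, with 6 at an unadjusted p under 0.05, and DESeq2 called 1. Over all genes edgeR called 17 and DESeq2 154, and the share of all genes at that unadjusted p was not counted.

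The genes with the most similar profiles over the 12 libraries were found by the root mean square difference of log2 CPM after each gene was centred on its own mean, among 10117 tested genes outside the lists with a mean of at least 5 CPM. For Hsph1, whose own values had a root mean square of 0.17 about their mean, these were Supt16 (0.07), Phlda2 (0.07), 3300005D01Rik (0.08) and Usp10 (0.08). For Hspd1, with 0.24, they were Eif2b3 (0.07), Dctpp1 (0.07), G3bp1 (0.08) and Fam185a (0.08). G3bp1, a stress granule gene, had means of 266, 318, 346 and 342 CPM in WT-DMSO, WT-DTX, KO-DMSO and KO-DTX. Between 1 and 4 of the 4 nearest genes remained when the scaling was changed or a library was left out.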

How the data were processed

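RNA was depleted of ribosomal RNA, reverse transcribed with random hexamers, amplified for 12 cycles and sequenced as paired reads of 150 bases, per the labels' protocols. The submitters' processing notes name bcl2fastq, STAR 2.5.1a, Subread and featureCounts 1.4.6-p5. Build, annotation, strandedness and the handling of multi-mapping reads: not given in the sources used here. Per gene symbol and library the authors deposited whole-number counts that are not normalized, with totals of 28729118 to 40801679. Of 40757 entries, 351 that repeated another in symbol and counts (0.907% of counts) were removed. Positions, lengths and GC content came from GENCODE M21 (GRCm38), matched by symbol, and promoter windows from RefSeq (GRCm38.p6). The build of the deposited counts may differ.

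Genes were tested with edgeR 4.0.16 (R 4.3.3): filterByExpr, TMM scaling, and 1 quasi-likelihood model with 4 group means over the 12 libraries. The 5 contrasts were two-sided, with Benjamini-Hochberg adjustment over 15538 genes and a threshold of 0.05. The SE of a log2 fold change was its size over the root of F, and log2 CPM used a prior count of 2. The common biological coefficient of variation was 13.2%. Per the labels, replicates are 3 cultures of each line, so p-values cover the spread between cultures and not between clones. Chi-square values per degree of freedom within groups ran from 8.46 to 172, so no library repeated another. Named genes were all 10 members, fixed relatives, and up to 4 called network genes per contrast with the largest change and at least 5 CPM. The members and lists were chosen with earlier results of these data known. Alternatives were DESeq2 1.42.0, limma-voom (limma 3.58.1), other scalings, filters, subsets and a GC correction (lowess, span 0.3). Pseudogene counts were added to the ratios as a check chosen after seeing the data. Figures used matplotlib 3.10.9.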

Additional observations from a re-analysis of the deposited data

Results flagged for a closer look

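Hspa9, the mitochondrial HSP70 gene, was flagged because the 3 docetaxel libraries were all below the 3 DMSO libraries in wild-type cells and all above them in knockout-labelled cells. Of all tested genes 19.3% were apart and lower in wild-type cells, and 19.2% apart and higher in knockout-labelled cells. The share with both was not counted. The difference between the docetaxel effects, knockout-labelled minus wild-type, was 0.24 ± 0.10 on the log2 scale. It did not pass the test of the difference itself after adjustment (edgeR adjusted p = 0.411), and the separate effects, −0.14 ± 0.07 and 0.10 ± 0.07, did not pass either (edgeR adjusted p = 0.145 and 0.393).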

How the results depend on the processing

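Calls of docetaxel in wild-type cells for Hspa1b, Dnajb1 and Hsp90aa1, and of Dnajb1 between the genotypes after docetaxel, were kept under all 25 alternatives, while the calls of Hspd1 in wild-type cells and of Dnajb1 in knockout-labelled cells and under DMSO were close to the threshold. Of 1228 refitted effects of the 10 genes, 1124 kept direction and side of the threshold, 50 lost their call, 27 gained one and 27 changed sign. Depth limits Hspa1a and Hspb1 most, at 18 to 75 and 5 to 19 counts per library, and the cause of the other shifts was not tested.

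Leaving out each library in turn, the number of the 10 genes called ran from 3 to 6 for docetaxel in wild-type cells, from 0 to 2 in knockout-labelled cells, from 0 to 4 between genotypes under DMSO, and stayed at 1 after docetaxel and at 0 for the interaction. For the network genes it ran from 15 to 28, 4 to 12, 4 to 17, 2 to 4 and 0 to 1 in the same order. Over all tested genes these refits called 3035 to 4824, 1311 to 2881, 1264 to 3273, 467 to 1083 and 2 to 431. For docetaxel in knockout-labelled cells the 10-gene count was 1 with the 6 libraries alone, 0 without WT-DMSO library 2 and KO-DTX library 3 together, and 5 with the GC correction, with or without the replicate block. Between genotypes under DMSO it was 1 with upper-quartile scaling or the 6 libraries alone, 0 without that pair, and 4 with the GC correction, with or without the block. The network count for docetaxel in wild-type cells was 15 without that pair. Under DMSO it was 19 with DESeq2, 7 with the 6 libraries alone, 5 without that pair, 22 with the GC correction and 21 with that and the block. After docetaxel it was 7 with DESeq2, 6 with the GC correction and 8 with the block added. For the interaction it was 1 with DESeq2 and 2 with no filter on low counts. Over all genes the interaction calls were 17 in the main fit, 154 with DESeq2 and 421 with no filter. In the 5 contrasts the GC correction called 5338, 3079, 3129, 1326 and 39 of all tested genes. Without that pair these calls were 3109, 1748, 1267, 565 and 4.

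Signs changed only for effects that did not pass. With the GC correction, without and with the block, the interaction of Hsf1 was 0.0265 and 0.0231, Hspa1a with docetaxel in knockout-labelled cells 0.00849 and 0.0278, Hspa8 between genotypes after docetaxel −0.00717 and −0.00751, and Bag3 with docetaxel in knockout-labelled cells 0.0552 and 0.0545. Hspa1b between genotypes after docetaxel was −0.0147 with limma-voom, −0.00547 with upper-quartile scaling and −0.000501 with Hspa1a summed in. Hsph1 under DMSO was −0.0036 with the 6 libraries alone and −0.11 without that pair, which gave 0.0217 for its interaction. Leaving out 1 library gave −0.0805 to 0.0433 for the Hsf1 interaction, −0.31 to 0.13 for Hspa1a and −0.93 to 0.0516 for Hspb1 with docetaxel in knockout-labelled cells, −0.00846 to 0.61 for Hspb1 in wild-type cells, and −0.49 to 0.49 for Hspb1 and −0.12 to 0.15 for Hsph1 under DMSO. It gave −0.15 to 0.13 for Hspa1b after docetaxel, −0.12 to 0.0807 for Bag3 in knockout-labelled cells and −0.0909 to 0.0361 for Itgb3 under DMSO.

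Pairing of the libraries by replicate number was mixed: correlations of same-numbered libraries' deviations ran from −0.40 to 0.68 over 10412 genes. Between genotypes they were 0.44, 0.14 and −0.11 for libraries 1 to 3 under DMSO, and 0.68, 0.45 and −0.02 after docetaxel. Between treatments they were 0.12, −0.40 and 0.06 in wild-type cells and −0.08, 0.18 and 0.17 in knockout-labelled cells. With the replicate block the 10-gene counts were 4, 2, 2, 1 and 0 in the 5 contrasts, and the network counts 25, 10, 11, 4 and 0. Over all tested genes the block gave 4510, 2700, 2534, 943 and 48 calls. Between genotypes under DMSO it ended the call of Dnajb1 (edgeR adjusted p = 0.054) and added that of Hsp90aa1 (0.0232). In each contrast between 1 and 4 of 6 libraries correlated best with their own number.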
